A study of Mus musculus with 8 samples.

Results

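Genes that make or remove ubiquitin chains in tumour necrosis factor (TNF) signalling, or that bind the proteins doing so, were followed in mouse Paneth cells, the antimicrobial secretory cells of the intestinal crypts. The set held 10 genes, Tnfaip3, Tnip1, Tnip2, Tnip3, Cyld, Otulin, Rnf31, Rbck1, Sharpin and Cflar. They were chosen by name for what their proteins do, and each was found by matching the Ensembl gene IDs of the count table to the GENCODE mouse annotation. This gave 10 genes out of 55414 gene IDs. The RNA came from wild-type (WT) mice injected with PBS, the control fluid, or with TNF, and the small intestine was taken 3 hours later for cell sorting of the Paneth cells. There were 4 PBS and 4 TNF libraries, described as biological replicates, and the study's methods give the mice as C57BL/6J and the samples as cells of individual mice. Both groups shared the genotype, the tissue, the sort and the time point, and differed in the injection. The comparison asks how TNF changed gene expression in these cells within 3 hours.

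TNF binds its receptor TNFR1, and a complex forms on the receptor in which enzymes attach ubiquitin chains to RIPK1 and to other proteins. The linear ubiquitin chain assembly complex (LUBAC) adds linear chains, which hold the kinases that lead to NF-kB, while deubiquitinases such as A20, CYLD and OTULIN remove chains or edit them. When these chains are lost, RIPK1, FADD and caspase-8 can assemble into a complex that kills the cell, and cFLIP holds caspase-8 in check there. In the intestinal epithelium A20 and its binding partner ABIN-1 are known for keeping TNF from killing epithelial cells, Paneth cells included.

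Stretches of the start regions that held a searched motif are shown first, so that their letters can be set beside the values given further on. RefSeq promoter windows of 300 bases, 250 before and 50 after each start, were at hand for 9 of the 10 genes in 11 windows taken from the GRCm38.p6 assembly, and Sharpin had no entry. Each window matched the GRCm39 genome once, and the coordinates given are those of GRCm39. The windows were searched on both strands for the 10-base NF-kB consensus, which was chosen with the genes' sequences already known. The 4 genes Tnfaip3, Tnip1, Tnip3 and Cyld held a match, and 4.51% of all 32851 RefSeq windows of the same length did. Each stretch of 30 bases below is read 5′ to 3′ on the strand of its gene, with the match in capitals.
Tnfaip3, near the start: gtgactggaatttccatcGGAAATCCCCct
Tnfaip3, farther upstream: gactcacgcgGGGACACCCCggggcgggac
Tnip1: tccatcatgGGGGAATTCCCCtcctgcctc
Tnip3: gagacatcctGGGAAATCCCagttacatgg
Cyld: ttgaccgagcGGAAAGTCCCttcagccagc

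The Tnfaip3 stretches lie on the minus strand at chr10:18891159-18891188 and chr10:18891264-18891293, with their matches at positions -12 to -3 and -125 to -116 from the RefSeq start. The nearer one falls in an exon of a longer GENCODE transcript and the farther one in an intron. The Tnip1 stretch, on the minus strand at chr11:54853804-54853833, holds 4 overlapping matches within 12 bases, at positions -58 to -47 and in an exon of a GENCODE transcript. The Tnip3 stretch, on the plus strand at chr6:65567318-65567347, reads as a match on both strands at positions -54 to -45 from the RefSeq start, and lies in an intron of the gene as GENCODE draws it. The Cyld stretch, on the plus strand at chr8:89423491-89423520, has its match at positions -155 to -146, in an exon of a GENCODE transcript. The windows of Tnip2, Otulin, Rnf31, Rbck1 and Cflar had no match to these letters.

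A pair of GAAA blocks with 2 free bases between them (GAAA-NN-GAAA), a form of the interferon response element, was searched in the same windows on both strands and overlapped no NF-kB match. It was found in 3.44% of all windows and in those of Rbck1 and Cflar, 2 genes without an NF-kB match. The Rbck1 match, shown in its complementary form, stands at positions -21 to -12 from the start of 1 of its 2 windows, on the minus strand at chr2:152174347-152174376 and in an exon of a GENCODE transcript.
Rbck1: ggactgccacTTTCACTTTCtcttccgggg
These matches describe letters, and binding was not measured.

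The libraries held between 23824717 and 32576077 counts. Values below are normalized CPM (counts relative to library size), that is, deposited counts scaled by the library total times the TMM factor of edgeR, and are given as mean ± SD of 4 libraries. Markers of Paneth cells were the most abundant of the marker lists in every library, with lysozyme 1 (Lyz1) at 141683 in PBS. Of the 7 Paneth markers Pla2g2a was higher (log2 fold change 1.01) and the others were not called. TNF replicate 4 stood apart: its TMM factor was 0.448 against 0.995 to 1.36 in the other 7 libraries, and the 7 Paneth markers summed to 1209286 normalized CPM there, against 388281 to 452815 in the other TNF libraries and 311085 to 459336 in PBS. Such a sum can pass the size of the library, because a small factor enlarges all normalized values. TNF replicate 4 also held fewer raw counts of every member except Tnip3 than the other TNF libraries, so its values and the results without it are given where they matter. Of 11 leukocyte markers, 7, among them Cd3e and Adgre1, had no count in any library, and the summed list ranged from 2.84 to 3.64 in PBS and from 4.32 to 7.05 in TNF, or to 4.54 without TNF replicate 4, with Cd52 higher (1 of 2 tested). Stromal and endothelial markers summed to 0.223 to 0.453 in PBS and 1.23 to 1.77 in TNF, with Col1a2 and Col3a1 at 0 and Vim, the 1 gene tested, higher. Goblet markers summed to 6522 to 10235 in PBS and 10961 to 22768 in TNF, or to 11661 without TNF replicate 4, with Muc2 higher and Fcgbp lower. Clca1 was also lower (log2 fold change -2.55), but by -0.60 without PBS replicate 1, and it was not called without any 1 of TNF replicates 1, 2 and 3. Of the other lists, 4 of 5 stem cell markers and 1 of 6 enterocyte markers were lower, 3 of 4 tested enteroendocrine markers were higher, and no tuft cell marker was called. The enteroendocrine count was 2 without any 1 of PBS replicates 1, 3 and 4 and TNF replicates 2 and 4, as Gcg was no longer called. The part of these other cells in the changes below was not tested.

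Of the 10 genes, 7 were higher after TNF (edgeR quasi-likelihood test, adjusted p under 0.05), where 23.3% of the 13368 genes tested were called higher. No member was lower, where 19.6% of genes were, and at an unadjusted p under 0.05 the count was also 0, as it was for DESeq2 and limma-voom. The 7 were A20 (Tnfaip3), its binding partners Tnip1, Tnip2 and Tnip3, Rnf31, Cyld and Cflar. In the same 7 every TNF library lay above every PBS library, which held for 22.4% of genes tested, while in Otulin, Rbck1 and Sharpin the groups overlapped. All 10 passed the filter on low counts, but Tnip3 did so through its TNF libraries alone and had to differ, so the count to read against these shares is 6 of the other 9. The median log2 fold change of those 9 was 0.63 (1.04 with Tnip3) and that of all genes 0.03. The counts are of RNA from sorted cells in bulk, in which fewer cells of a type and less RNA per cell cannot be told apart.

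**Figure D1:**
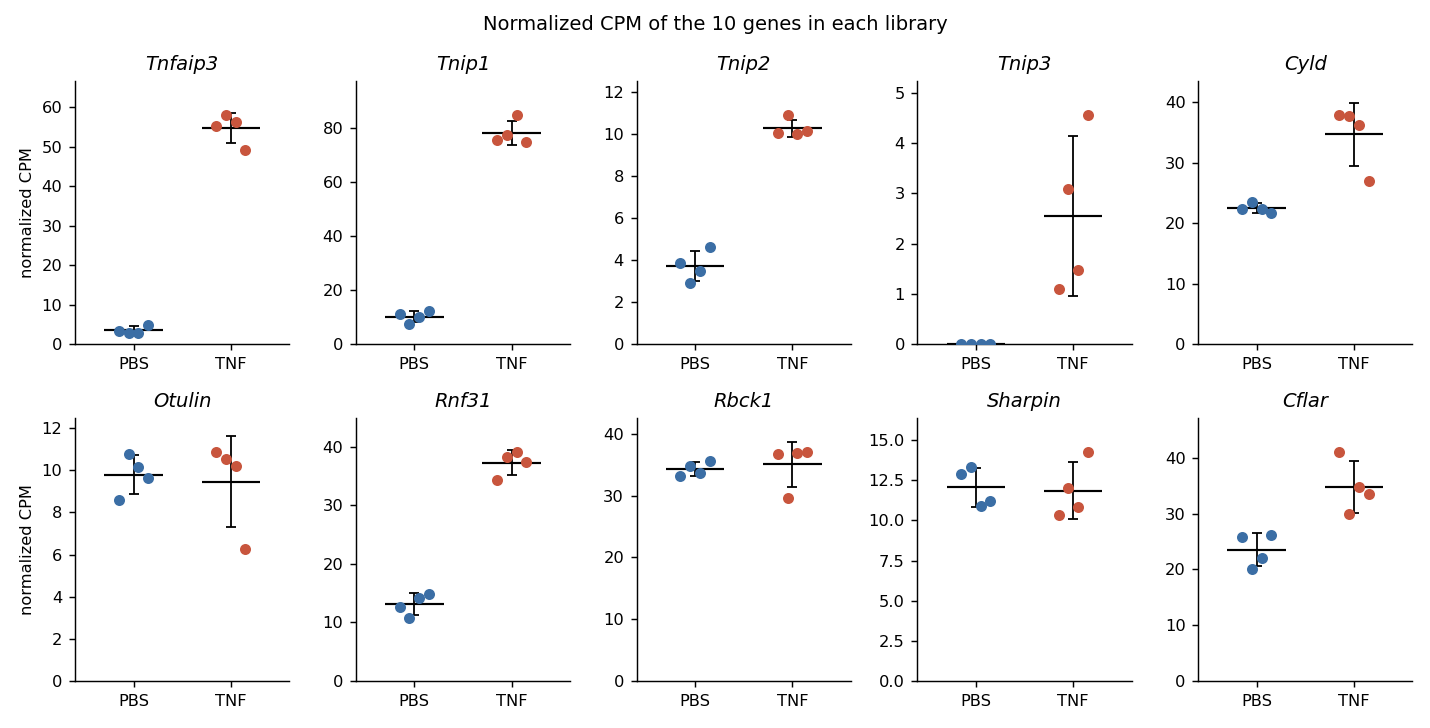
Normalized CPM of each of the 10 genes in the 4 PBS and 4 TNF libraries, with a panel and a linear axis from 0 for each gene. Each point is 1 library, ordered by replicate number from left to right, and lines show the mean and SD. The groups are apart in 7 panels and overlap in those of Otulin, Rbck1 and Sharpin, and TNF replicate 4 is the lowest TNF point for Tnfaip3, Tnip1, Cyld and Otulin.

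Tnfaip3 (ENSMUSG00000019850, chr10:18874201-18891405, minus strand) encodes A20, an enzyme that removes and adds ubiquitin and restrains NF-kB and cell death. It stood at 3.30, 2.90, 2.72 and 4.98 normalized CPM in PBS replicates 1 to 4 and at 55.2, 57.9, 56.3 and 49.2 in the TNF replicates. The lowest TNF library was thus far above the highest PBS library, and the spread within either group was small beside the gap. The means were 3.48 ± 1.03 and 54.7 ± 3.83, a log2 fold change of 3.96 ± 0.19 (SE) with an edgeR adjusted p of 2.72e-07. The fitted change came to 15.6-fold, the largest among the 9 members that were counted in both groups. Raw counts ranged from 69 to 1673 per library.

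Tnip1, Tnip2 and Tnip3 encode ABIN-1, ABIN-2 and ABIN-3, which bind A20 and read ubiquitin chains. Tnip1 (ENSMUSG00000020400, chr11:54796320-54854661, minus strand) stood at 10.99, 7.48, 10.1 and 12.3 in PBS and at 75.6, 77.5, 84.6 and 74.6 in TNF. The groups were well apart, with TNF replicate 3 highest. The means of 10.2 ± 2.04 and 78.1 ± 4.54 gave a log2 fold change of 2.93 ± 0.16 (edgeR adjusted p = 3.57e-07).

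Tnip2 (ENSMUSG00000059866, chr5:34651772-34671388, minus strand) stood at 3.89, 2.90, 3.47 and 4.64 in PBS and at 10.1, 10.9, 10.01 and 10.1 in TNF. The TNF libraries lay close together and above all PBS libraries. The log2 fold change was 1.46 ± 0.16 (edgeR adjusted p = 3.60e-05), from a mean of 3.73 ± 0.732 to one of 10.3 ± 0.419.

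Tnip3 (ENSMUSG00000044162, chr6:65502295-65611024, plus strand) had 0 counts in all 4 PBS libraries and 31, 89, 42 and 53 counts in the TNF libraries. On the normalized scale this was 1.10, 3.08, 1.47 and 4.55 in TNF, a mean of 2.55 ± 1.59, so the gene was detected in every TNF library at levels that differed several-fold among them. A limit of 3 counts in each PBS library, which is 0.0679 to 0.118 normalized CPM, makes the rise of the mean at least 27.0-fold, or at least 19.9-fold without TNF replicate 4. The lowest TNF library was at least 9.31-fold above the highest of these limits. No p-value is given, since the gene passed the filter on low counts through the TNF libraries alone. The limit bounds the PBS level from above and is not a threshold of detection. The stromal marker Pdgfra, for example, was counted in PBS at a mean of 0.0227 normalized CPM. Whether Tnip3 RNA was present in PBS under the limit was not tested.

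Rnf31 (ENSMUSG00000047098, chr14:55828443-55841309, plus strand) encodes HOIP, the catalytic subunit of LUBAC that joins ubiquitin into linear chains. It stood at 12.6, 10.7, 14.2 and 14.8 in PBS and at 34.3, 38.3, 39.1 and 37.4 in TNF. All 4 TNF libraries, replicate 4 included, were well above the highest PBS library. The means were 13.1 ± 1.84 and 37.2 ± 2.11, with a log2 fold change of 1.51 ± 0.13 (edgeR adjusted p = 6.65e-06).

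The other LUBAC subunits, HOIL-1 (Rbck1), which also carries a ligase domain, and the adaptor Sharpin, gave no such change. Rbck1 (ENSMUSG00000027466, chr2:152154456-152174609, minus strand) stood at 33.2, 34.9, 33.7 and 35.6 in PBS and at 36.7, 29.6, 36.9 and 37.0 in TNF. TNF replicate 2 was the lowest of all 8 libraries, and the other TNF libraries were slightly above the PBS libraries. The log2 fold change was 0.03, with a 95% interval from -0.21 to 0.27 (edgeR adjusted p = 0.848), and its sign turned with library size as the only scaling.

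Sharpin (ENSMUSG00000022552, chr15:76230571-76235948, minus strand) stood at 12.9, 13.4, 10.9 and 11.2 in PBS and at 10.3, 12.05, 10.8 and 14.3 in TNF. Both the lowest and the highest value were in the TNF group, so the groups overlapped fully. Its log2 fold change was -0.03, with an interval from -0.33 to 0.27 (edgeR adjusted p = 0.870). For both subunits the interval leaves out a change as large as that of Rnf31.

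Otulin (ENSMUSG00000046034, chr15:27542721-27631297, minus strand) encodes the deubiquitinase that cuts only linear chains and binds HOIP. It stood at 8.58, 10.8, 10.2 and 9.64 in PBS and at 10.9, 10.5, 10.2 and 6.27 in TNF. TNF replicate 4 lay below all other libraries, and the other TNF libraries lay within or just above the PBS range. The log2 fold change was -0.03, with an interval from -0.41 to 0.34 (edgeR adjusted p = 0.892), and it was 0.12 without that library, again without a call.

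Cyld (ENSMUSG00000036712, chr8:89423468-89478574, plus strand) encodes a deubiquitinase that removes linear and K63-linked chains. It stood at 22.4, 23.6, 22.3 and 21.7 in PBS and at 37.8, 37.6, 36.3 and 26.9 in TNF. The PBS libraries and TNF replicates 1 to 3 each formed a tight group, and TNF replicate 4 lay between them. The log2 fold change was 0.63 ± 0.13 (edgeR adjusted p = 0.00217), from a mean of 22.5 ± 0.780 to one of 34.7 ± 5.22, and it was 0.74 without TNF replicate 4.

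Cflar (ENSMUSG00000026031, chr1:58750321-58798047, plus strand) encodes cFLIP, which resembles caspase-8 and limits its activity. It stood at 25.8, 20.1, 22.04 and 26.2 in PBS and at 41.0, 29.95, 34.8 and 33.4 in TNF. The groups did not overlap, but the lowest TNF library was near the highest PBS library. The log2 fold change was 0.56 ± 0.13 (edgeR adjusted p = 0.00589), with means of 23.5 ± 2.95 and 34.8 ± 4.62.

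The smaller rises depended on how the libraries were scaled. With library size alone, without TMM factors, the median log2 fold change of all genes moved by -0.40, and 23.8% of all calls were rises against 54.3% with TMM. Tnfaip3 (3.57), Tnip1 (2.53), Tnip2 (1.05), Rnf31 (1.11) and Tnip3 were still called higher, which made 4 of 9 without Tnip3, where 5.66% of genes tested were called higher in that setting. Cyld had a log2 fold change of 0.29 (edgeR adjusted p = 0.568) and Cflar one of 0.18 (edgeR adjusted p = 0.734), and neither was called. Rbck1, Sharpin and Otulin were at -0.37, -0.46 and -0.35, also without a call. Set against the median of all genes, the values were close under both scalings, for example 0.60 and 0.67 for Cyld and 0.54 and 0.55 for Cflar. A change of scaling moves all genes by nearly the same amount, which the median takes out. That closeness was thus fixed in advance and says nothing about the lost calls. With library size alone and TNF replicate 4 left out, a setting chosen after seeing the data, Cyld was called again (0.57, edgeR adjusted p = 0.00437) and Cflar was not (0.41, edgeR adjusted p = 0.129).

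**Figure D2:**
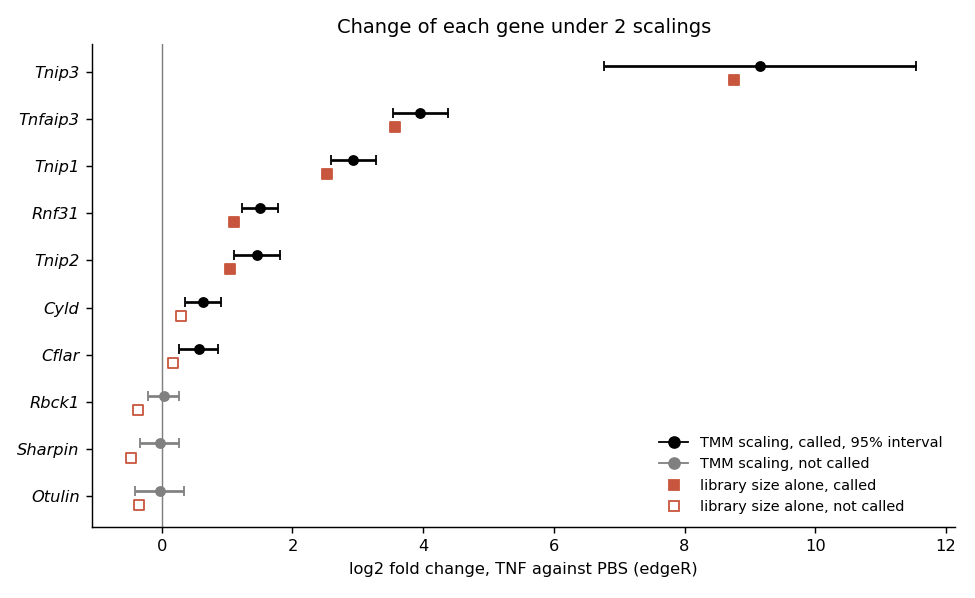
Log2 fold change of TNF against PBS for each gene, with the edgeR estimate and 95% interval under TMM scaling (circles) and the estimate with library size alone (squares). Filled black or red symbols were called. All squares lie to the left of their circles, and the calls of Cyld and Cflar are lost with library size alone, where Rbck1 also turns from 0.03 to -0.37. The Tnip3 estimate rests on 0 counts in PBS and is not a bound.

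Ratios between pairs of these genes within a library do not depend on scaling, and 7 were tested. Each used counts per kilobase of merged exons. The pairs were chosen with earlier results known, and the second gene of each pair rose more than the first. All 7 were lower in every TNF library than in any PBS library. These falls restate differences between fold changes, and pairs that share a gene are not separate results. The share of other gene pairs that part in this way was not computed. The two-sided exact permutation p was 0.0286 for each of the 7 ratios, also after adjustment over the 7. This is the smallest value that 70 assignments of 8 libraries can give. The ratio of Rbck1 to Rnf31 fell from 1.49 to 0.531 (geometric means), a log2 difference of -1.49. It was 1.49, 1.84, 1.34 and 1.36 in PBS and 0.606, 0.438, 0.535 and 0.561 in TNF, so that RNA of the HOIL-1 gene exceeded that of the HOIP gene per kilobase of merged exons in all PBS libraries and fell below it in all TNF libraries. The crossing depends on the length used: per kilobase of the longest transcript, Rbck1 stayed above Rnf31 in TNF replicate 1 (7.22 against 6.94 normalized CPM per kilobase) and the groups of values overlapped in TNF. The log2 difference between PBS and TNF does not depend on the length. The ratio of Sharpin to Rnf31 fell from 1.196 to 0.409 and that of Otulin to Rnf31 from 0.386 to 0.128, with log2 differences of -1.55 and -1.59. The RNAs of the LUBAC genes and of the enzyme that opposes them thus did not move in proportion.

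The ratio of Cyld to Tnfaip3, the genes of a pair of deubiquitinases, fell from 4.78 to 0.454, a log2 difference of -3.40. Cyld led in all PBS libraries, by 3.13 to 5.86, and Tnfaip3 in all TNF libraries, where the ratio was 0.395 to 0.493. The ratio of Tnip1 to Tnfaip3 fell from 2.80 to 1.35 (log2 difference -1.05), so Tnip1 stayed ahead per length in all 8 libraries. Tnip2 to Tnip1 fell from 0.803 to 0.290 (log2 difference -1.47). The ratio of Cflar to Casp8, the gene of caspase-8, fell from 0.236 to 0.0968 (log2 difference -1.29), since Casp8 rose from 21.1 ± 0.768 to 76.4 ± 6.30 normalized CPM, more than Cflar did.

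**Figure D3:**
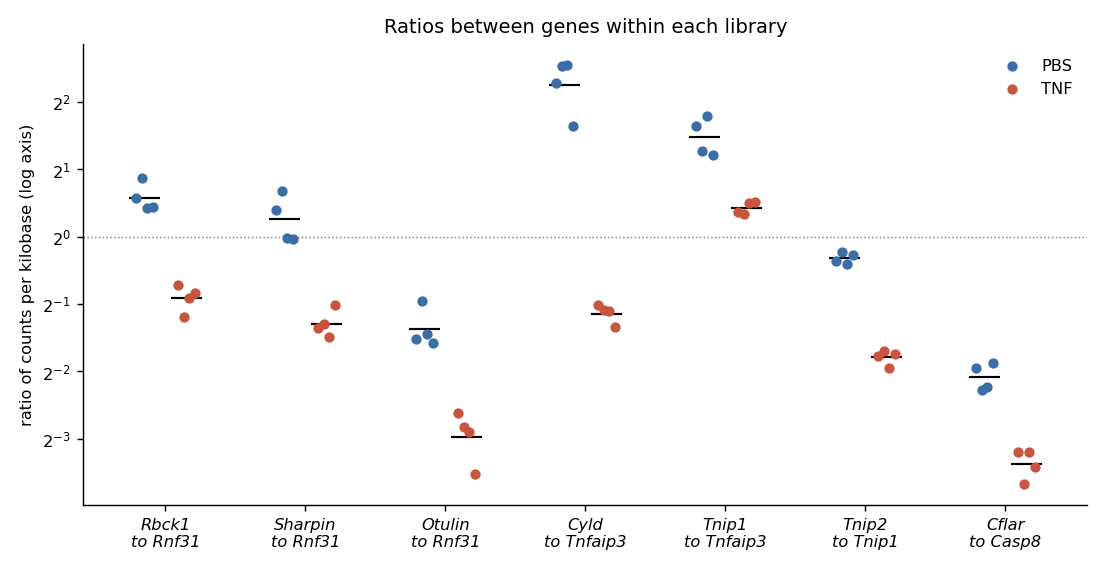
Ratio of counts per kilobase of merged exons for 7 pairs of genes in each library, on a log2 axis. Points are the 4 PBS and 4 TNF libraries, lines are geometric means, and the dotted line marks equal levels. In each pair the TNF points lie below the PBS points, and the ratio of Cyld to Tnfaip3 crosses the line of equal levels between the groups. The ratio of Rbck1 to Rnf31 does so with merged exons but not in every library with the longest transcript as length.

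Levels of different genes were compared as normalized CPM per kilobase of merged exons. In PBS the order ran from Rbck1 (2.94 ± 0.0929) through Sharpin (2.36 ± 0.239), Rnf31 (1.98 ± 0.278), Cyld (1.67 ± 0.0579), Cflar (1.63 ± 0.204), Tnip1 (0.991 ± 0.198), Tnip2 (0.793 ± 0.156) and Otulin (0.761 ± 0.0727) to Tnfaip3 (0.358 ± 0.106) and Tnip3 (0). Neighbours in this order were apart in all libraries at 4 steps, namely from Rbck1 to Sharpin, from Cflar to Tnip1, from Otulin to Tnfaip3 and from Tnfaip3 to Tnip3. The other neighbours overlapped. A20 RNA was thus the lowest per length of the 9 members detected in PBS.

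After TNF the order was Tnip1 (7.58 ± 0.440), Rnf31 (5.63 ± 0.318), Tnfaip3 (5.63 ± 0.395), Rbck1 (3.00 ± 0.312), Cyld (2.57 ± 0.387), Cflar (2.41 ± 0.319), Sharpin (2.32 ± 0.343), Tnip2 (2.19 ± 0.0891), Otulin (0.735 ± 0.167) and Tnip3 (0.230 ± 0.143). Here the libraries were apart from Tnip1 to Rnf31, from Tnfaip3 to Rbck1, from Tnip2 to Otulin and from Otulin to Tnip3. Rnf31 and Tnfaip3 overlapped, as did each pair of neighbours from Rbck1 down to Tnip2. The separations of Tnfaip3 from Rbck1 and of Otulin from Tnip3 depend on the length used. Per kilobase of the longest transcript, Rbck1 was at 7.29 and Tnfaip3 at 7.06 in TNF replicate 4. In the same library Tnip3 was at 0.984 and Otulin at 0.755.

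**Figure D4:**
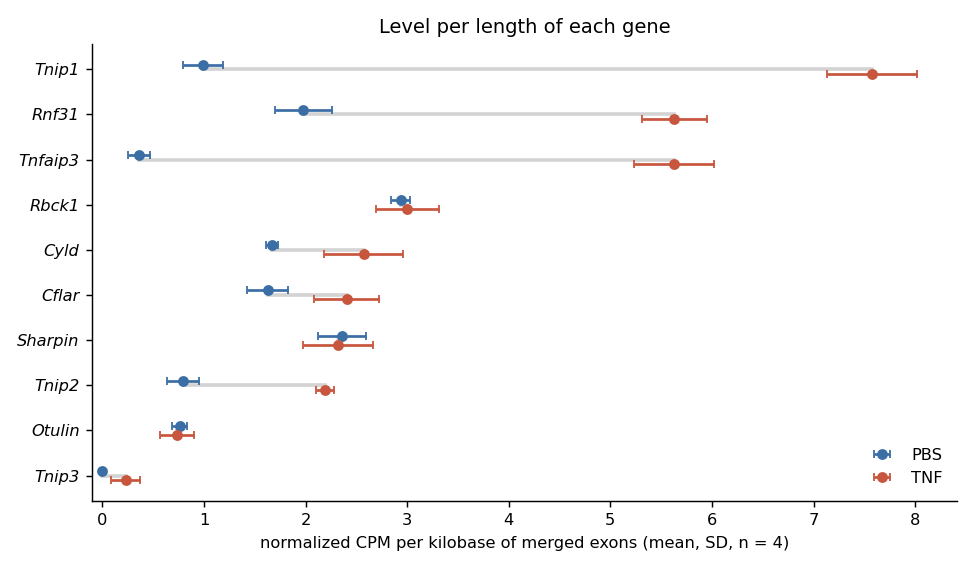
Level of each gene as normalized CPM per kilobase of merged exons, mean and SD of 4 PBS (blue) and 4 TNF (red) libraries, joined by a grey bar and sorted by the TNF mean. Tnip1, Rnf31 and Tnfaip3 lead after TNF, while Rbck1 leads in PBS at 2.94.

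Some of these genes share exon sequence with a neighbour, and the sources used here do not say whether counting used strand. Rnf31 overlaps Psme2 on the other strand over 731 exon bases (11.1% of its own) and Irf9 on its own strand over 282 (4.3%). Psme2, a proteasome activator gene, rose by a log2 fold change of 1.94 and Irf9, an interferon signalling factor, by 1.02 (edgeR adjusted p = 0.00101 and 0.000179). Tnip1 overlaps Gpx3 over 25.3% of its exon bases, and Gpx3 stood at only 0.124 normalized CPM in PBS and 0.434 in TNF. Rbck1 overlaps Tbc1d20 (11.5%), which rose by 0.63, and Sharpin overlaps Maf1 (22.5%), which fell by 0.50 on the log2 scale (edgeR adjusted p = 0.00167 and 0.0106). The part of these neighbours in the members' counts was not tested.

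The wider pathway was read from 6 lists of 59 genes, of which 56 were tested. Of these, 33 were higher (58.9%), 7 were lower (12.5%) and 16 were not called, where 23.3% of all genes tested were higher and 19.6% lower, with a median log2 fold change of 0.56 against 0.03 over all genes. Under scaling by library size alone, 11 were higher and 7 lower, where 5.66% and 18.1% of all genes tested were. The counts of the lists below are to be read against these shares.

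Among 8 partners of A20 and readers of ubiquitin chains, 4 rose and 2 fell, the falls being near the share over all genes tested. Sqstm1, an autophagy receptor that binds ubiquitin, rose from 156 ± 12.2 to 889 ± 106 normalized CPM (log2 fold change 2.51, edgeR adjusted p = 8.56e-07). N4bp1, a ubiquitin-binding regulator of NF-kB, rose by 2.28 and Optn (optineurin), a reader of linear and K63-linked chains, by 1.496. Rnf11 also rose (0.66), while Ikbkg, which encodes NEMO, the linear-chain reader of the IKK complex, fell by 0.43 and Nbr1 fell by 0.72. Tax1bp1 (-0.15) and Itch (-0.10), which work with A20, were not called. On library size alone, 2 rose, and Optn was not called.

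Of 6 genes for E2 enzymes of LUBAC and K63-linked chains and for adaptors of CYLD, 5 were tested, and 3 rose and 1 fell. Ube2d3 rose by 1.14, Ube2n, the E2 for K63-linked chains, by 0.85 and Spata2, which tethers CYLD to LUBAC, by 0.72, while Spata2l fell by 1.06. Ube2l3, an E2 that works with HOIP, was at 0.13 without a call. None of the 3 rises was called with library size alone. Spata2 stood at 13.3 ± 1.42 in PBS and 21.8 ± 2.47 in TNF, the same direction as Cyld.

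Of 14 other deubiquitinases of the OTU family, the family of A20 and OTULIN, 12 were tested, and 8 rose and 2 fell. Otud5 rose by 0.59, Vcpip1 by 0.59 and Otud4 by 0.75, and Otud1 fell by 1.96, from 1.32 ± 0.424 to 0.327 ± 0.133 normalized CPM. The count of rises was 5 without any 1 of PBS replicates 1, 2 and 3 and TNF replicates 1, 2 and 3, and none was left with library size alone. The count of falls was 1 without PBS replicate 1, PBS replicate 3 or TNF replicate 2.

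Of 8 further deubiquitinases tied to NF-kB, 2 rose and 1 fell, which is near the share of rises over all genes tested and below that of falls, and so is no result about the list. Usp18, which removes the ubiquitin-like protein ISG15, rose from 0.705 ± 0.112 to 5.29 ± 1.72 (log2 fold change 2.92, edgeR adjusted p = 1.12e-05), and Usp21 fell by 0.71. Usp4 rose by 0.39, and that call was lost without any 1 of PBS replicates 1, 3 and 4 and TNF replicates 1, 2 and 3, where 1 rise remained, and with library size alone. Without TNF replicate 2 the count of falls was 2.

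Of 17 genes of the TNFR1 complex and its kinases, 11 rose and 1 fell. Birc3, which encodes cIAP2, a ligase of K63-linked chains, rose from 8.09 ± 1.92 to 191 ± 24.4 (log2 fold change 4.56, edgeR adjusted p = 1.54e-07). Ripk1, the main substrate of these chains, rose by 1.76 and the kinase gene Tbk1 by 1.78. The receptor gene Tnfrsf1a rose by 0.97, Birc2, the cIAP1 gene, was at 0.35 without a call, and Tab1, a subunit of the TAK1 kinase complex, fell by 0.66. The number of rises was 4 with library size alone.

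Of 6 partners of cFLIP in the death complex, 5 rose and none fell by edgeR at an adjusted or an unadjusted p under 0.05. Casp8 rose by 1.85 (edgeR adjusted p = 5.39e-07), Fas, a death receptor gene, by 3.24, Mlkl, the executor of necroptosis, by 2.62 and Ripk3 by 1.59. Fadd, the adaptor gene of caspase-8, was at 0.22 without a call. The number of rises was 4 with library size alone.

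**Figure D5:**
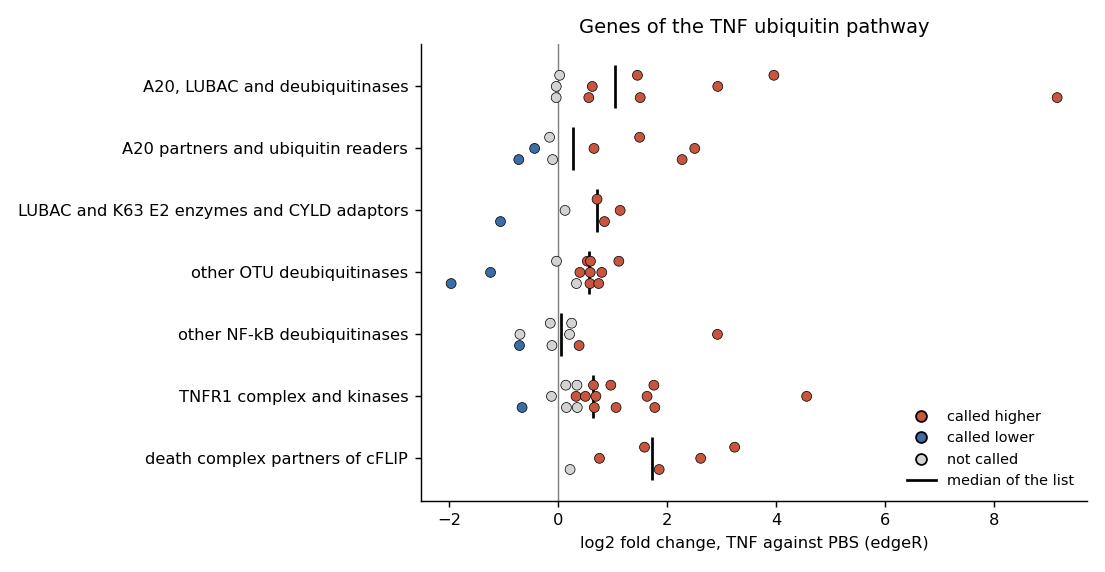
Log2 fold change (edgeR, TMM scaling) of every tested gene in the member list and 6 pathway lists, 1 point per gene, coloured by call, with the list median as a line, which for the member list includes Tnip3. Most called genes lie to the right of 0, 33 of 56 pathway genes were called higher with TMM scaling, and 11 were with library size alone.

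The genes whose pattern over the 8 libraries was nearest to that of Tnfaip3, by root mean square difference of centred log2 CPM among 8492 genes, were Parp14 (0.153), Gbp7 (0.199) and Nfkbia (0.208), which encodes the NF-kB inhibitor IkB alpha. Their log2 fold changes were 4.07, 4.08 and 3.86. The nearest to Cyld were U2af1 (0.0462), Rnf4 (0.0506) and Tm9sf4 (0.0523), with log2 fold changes of 0.59, 0.66 and 0.57. All 6 were called by edgeR, and the likeness was read over the same 8 libraries as the contrast.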

How the data were processed

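The authors deposited raw counts per Ensembl gene ID for 8 RNA-seq libraries of sorted Paneth cells, made with a stranded mRNA kit. Per the submitters' processing notes FastQC 0.12, STAR 2.7.10a and DESeq2 were used on the mm39 build. The counter, its strand setting and its handling of reads with several matches are not stated in the sources used here. Symbols, positions and exon lengths came from GENCODE mouse release 39 (GRCm39), which matched 54749 of 55414 IDs and left 665 without a match. Libraries were grouped and numbered by their labels.

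Counts were tested in edgeR 4.0.16 (R 4.3.3) with the quasi-likelihood test, TMM scaling, filterByExpr, no covariate and Benjamini-Hochberg adjustment over all genes tested. A gene was called at an adjusted p under 0.05, and standard errors were derived from the F statistic. Ratios used a pseudocount of 0.5 counts and an exact permutation test. No molecular identifiers are described, so the limit of 3 counts used for Tnip3 covers counting error only. On simulated counts with changes of 1 or 2 on the log2 scale, the test found 174 of 190 altered genes (91.6%) in a set of 13560. It found 83.9% of those altered by 1, and 4.92% of its calls were false. The simulation had few altered genes, the same spread for all genes and no library with a composition like that of TNF replicate 4. It held no change as small as those of Cyld and Cflar, so these rates do not carry over to the data. The lowest chi-square per degree of freedom between libraries of a group was 8.77, so no pair agreed within sampling noise.

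The members, lists and tests were chosen with earlier results of these data known. Named were all members, the 3 lowest p-values of each pathway list and the 3 nearest patterns to Tnfaip3 and Cyld (mean of at least 5 normalized CPM). Rnf11, Ikbkg, Nbr1, Tax1bp1, Itch, Spata2l, Ube2l3, Otud4, Tnfrsf1a, Birc2, Tab1, Ripk3 and Fadd were named after their values were seen. Alternatives were library size alone, RLE scaling, TMM with Defa genes left out, a filter of 1 count in all, a filter of 1 CPM in 4 or more libraries, limma-voom (limma 3.58.1), DESeq2 1.42.0, a threshold of 0.01, a block on replicate number, leaving out each library, a pseudocount of 2 counts and the longest transcript as length.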

Additional observations from a re-analysis of the deposited data

Results flagged for a closer look

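In 34 groups of 4 values, 1 for each of the 10 members and 7 ratios in each treatment, the library farthest from the rest was set against Dixon's 95% limit. Chance passes that limit in about 1 of 20 groups, and 4 passed it here. All were TNF libraries. Cyld was 26.9 normalized CPM in TNF replicate 4 and 36.3 to 37.8 in the other TNF libraries. Otulin was 6.27 in the same library and 10.2 to 10.9 in the others. Tnip2 was 10.9 in TNF replicate 2 and 10.01 to 10.14 in the others, a narrow spread in a gene that rose in all 4. Rbck1 was 29.6 in TNF replicate 2 and 36.7 to 37.0 in the others.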

How the results depend on the processing

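Of 180 values of the members' log2 fold changes under alternatives, 168 kept their direction and their side of the threshold, 3 were no longer called and 9 changed sign. All 9 sign changes were in genes that were not called. The 168 include every value of Tnip3, which had no counts in PBS and could not change sign, so its values are no sign of stability. The sign of Rbck1 turned to -0.37 with library size alone, to -0.017 without a filter and to -0.16 with library size alone and without TNF replicate 4, a setting chosen after seeing the data. Leaving out 1 library at a time gave values between -0.12 and 0.12 for Otulin, between -0.024 and 0.066 for Rbck1 and between -0.11 and 0.018 for Sharpin. With library size alone 3182 genes were called in place of 5746, and 11 pathway genes in place of 33 were higher. The number of members called higher was 7 without any 1 library and 5 with library size alone, Tnip3 included. With the longest transcript as length, 5 of 10 ranks were kept in PBS and 6 in TNF. Of 306 values of the named pathway genes, 291 kept their call, 15 lost it and none reversed.

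Deviations of libraries of the same replicate number had correlations of 0.023, 0.066, -0.14 and -0.13. The highest with another number were 0.019, 0.059, 0.094 and 0.24. These few values show no clear pairing by number and cannot exclude one. With the replicate block 5087 genes and the same number of members, 7, were called. For the ratios a sign-flip test with the replicate block cannot go below an exact p of 0.125, which all 7 had, with log2 differences of -1.49 (Rbck1 to Rnf31), -1.55 (Sharpin to Rnf31), -1.59 (Otulin to Rnf31), -3.40 (Cyld to Tnfaip3), -1.05 (Tnip1 to Tnfaip3), -1.47 (Tnip2 to Tnip1) and -1.29 (Cflar to Casp8). Depth limits Tnip3 most, with 0 to 89 counts per library.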
